A study of Mus musculus with 6 samples.

Results

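Circadian clock genes were followed in the colonic epithelium of mice with and without the glucocorticoid receptor. The 10 genes were Arntl (also called Bmal1), Clock, Npas2, Per1, Per2, Per3, Cry1, Nr1d1, Dbp and Nfil3. They were chosen by name, with earlier results of these data known, and all 10 were found among the 23725 genes of the deposited table. RNA came from colonic epithelial cells enriched on a Percoll gradient without culture, from C57BL/6J mice in 2 groups with n = 3 libraries each. One group was wild type. The other, labelled B6-Cg-Nr3c1-Vil-Cre/ERT2 (Nr3c1IEC-/-), was designed to lose Nr3c1, the gene of the receptor, through a tamoxifen-activated Cre under the villin promoter, which is active in intestinal epithelium. The treatment protocol is the same on every sample of both groups: tamoxifen into the peritoneum on 5 days in a row, and cells collected 7 days after the first dose. The labels do not say whether wild-type mice carried the Cre transgene. They give neither the age of the mice nor the time of day of collection, and they do not say outright that each library is a separate animal, so p-values measure the spread between these libraries.

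The molecular clock is a feedback loop of transcription. BMAL1, the protein of Arntl, pairs with CLOCK or its relative NPAS2 and switches on the Per and Cry genes through E-box sequences, and the PER and CRY proteins then shut their own activators off. A side loop runs through Nr1d1, whose protein REV-ERB alpha represses Arntl and Nfil3 at elements that the ROR receptors also bind, and output genes are driven through D-box sequences by DBP and opposed there by NFIL3. In mice kept on a light cycle, transcripts of Arntl and Npas2 peak about opposite to those of Dbp, Per3 and Nr1d1, glucocorticoids are a time signal to clocks outside the brain, and Per1 is a known direct target of the receptor.

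The sequences through which this loop acts lie next to several of these genes, and those that a search of RefSeq start-site windows (GRCm38.p6, 250 bases before to 50 after each start) found are shown here to place each gene in the loop. Windows were held for 9 of the 10 genes, and Per2 had none. Capitals mark the matched letters, and each stretch runs 5′ to 3′ on the gene's strand. The ROR/REV-ERB element (TAGGTCA or TGGGTCA, either strand) was found at Arntl (chr7:113207528-113207557, + strand) and, as its reverse complement, at Nfil3 (chr13:52981035-52981064, - strand), both inside annotated exons. An E-box (CACGTG, a palindrome) was found at Per1 (chr11:69098771-69098800, + strand), within the annotated gene and before one of its internal starts, and upstream of Cry1 (chr10:85185097-85185126, - strand). Upstream of Per3 lay 2 D-boxes (TTATGTAA or TTACGTAA, either strand; chr4:151044808-151044878, - strand). Ciart, a clock repressor described further on, had 3 E-boxes (chr3:95882259-95882352, - strand). It was not alone among the other core loop genes described further on. Tef and Bhlhe41 also held E-boxes, Timeless a D-box and Hlf a CRE (TGACGTCA), and these stretches are not shown.
Arntl: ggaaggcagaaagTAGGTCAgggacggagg
Nfil3: cggcgctcggaacTGACCTActaacacaca
Per1: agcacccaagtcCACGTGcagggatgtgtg
Cry1: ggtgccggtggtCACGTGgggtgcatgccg
Per3: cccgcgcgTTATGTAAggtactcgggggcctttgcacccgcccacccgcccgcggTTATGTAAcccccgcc
Ciart: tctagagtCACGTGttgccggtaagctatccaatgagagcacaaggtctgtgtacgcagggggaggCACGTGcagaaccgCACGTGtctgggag

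Of all 32851 start-site windows, 6.45% held the ROR/REV-ERB letters, 7.15% the E-box and 1.06% a D-box. The same search found no full CRE (TGACGTCA; 1.79% of all windows) and no glucocorticoid response element (G, any base, ACA, any 3 bases, TGT, any base, C; 0.475% of all windows) in the windows of the 9 genes. With 13 windows for these genes and shares this low, finding neither is uninformative, and sequence outside the windows was not searched. The matches that were found describe letters and were not linked to binding or to changes of level here.

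In the knockout libraries 4 of the 10 clock genes were lowered and none of the 10 was raised past the threshold. The 4 were Arntl and Npas2, which encode the activator and one of its partners, Nr1d1, the repressor of Arntl, and Nfil3, the repressor at D-boxes. Clock, Per1, Per3, Cry1 and Dbp overlapped between the groups, and Per2 was the sole member that was higher in every knockout library than in every wild-type library. Changes were tested with limma on log2(normalized reads + 1) over 12837 genes, and a gene was called at a Benjamini-Hochberg adjusted p under 0.05. Among all genes tested 15.4% were called lowered, 15% raised and 30.5% either way, which is the background against which 4 of 10 lowered and 0 of 10 raised stand. The members were chosen with earlier results of these data known, so these counts describe the list and are no test of it. Of 8 other core loop genes tested, 2 were raised and 0 lowered. The groups did not overlap for 5 of the 10 members, against 50.7% of all genes tested, so the share without overlap was at the background; 4 of the 10 were lower without overlap, against 25.5%. The median log2 change (knockout minus wild type) was -0.40 over the 10 members and 0.01 over all genes tested. In bulk RNA fewer cells of a type and less RNA per cell cannot be told apart, and this holds for every difference given here.

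The targeted gene and the make-up of the libraries bear on these values. Nr3c1 was 1120, 967 and 197 normalized reads in the libraries labelled wild type, numbered 1, 2 and 3 in accession order, and 145, 123 and 175 in the knockout libraries. The library labelled wild type replicate 3 therefore lay close to the knockouts at the targeted gene, against its label, and the exact permutation p of Nr3c1 was 0.1, the smallest that 3 against 3 libraries allow (two-sided). All 12 epithelial markers, Epcam, Cdh1 and Vil1 among them, were detected in every library, 2 of them (Krt20 and Vil1) being called raised and 2 (Cdx1 and Cdx2) lowered. Of 37 immune and stromal markers, 14 of the 23 tested were called raised and 0 lowered. The background for both sets of markers was 15% raised and 15.4% lowered among all genes tested. The summed level of the 22 immune markers was 751 to 1453 in wild type and 3839 to 9253 in knockout, and that of the 15 stromal markers 676 to 1253 and 977 to 2926. Much of the highest immune sum, that of knockout replicate 1, was S100a8 (2129), S100a9 (2330), Cd14 (1490) and Lyz2 (1170). The lymphocyte markers Cd3e, Cd3g, Cd8a, Cd4, Cd79a and Ms4a1 were too low to be tested. Among endothelial markers Cdh5 was at 0 in all wild-type libraries and had 5, 1 and 0 reads in knockout, whereas Pecam1 was 22.6 ± 4.59 and 10.3 ± 4.34 normalized reads, lower in every knockout library but not called (limma adjusted p = 0.055). The pericyte marker Pdgfrb was 82.8 ± 33.7 and 42.6 ± 20.3 and not called, and the neuronal marker Elavl4 had reads only in knockout replicate 1, where it had 2. The part of these markers in the results for the clock genes was not tested beyond the covariate fit given further on. Recovered reads per library ran from 10089313 to 12030844. Dbp, the clock gene with the lowest mean level, had 17 to 42 reads, and Per3 had 15 to 63.

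**Figure D1:**
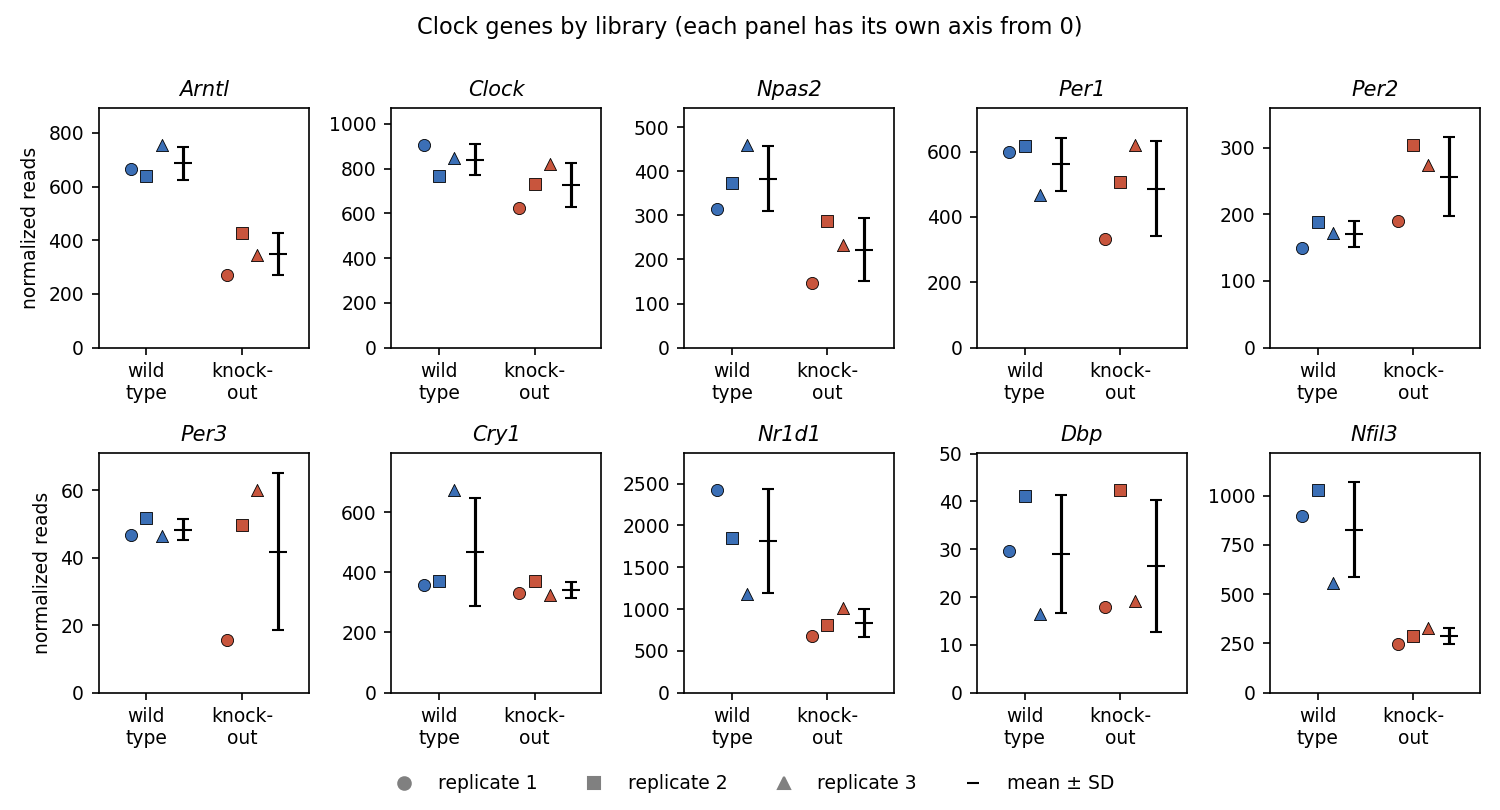
Normalized reads of each of the 10 clock genes (vertical axes, each from 0) in the 3 wild-type libraries (blue) and the 3 knockout libraries (red), with the symbol giving the replicate and the bar the mean ± SD of the group. Arntl, Npas2, Nr1d1 and Nfil3 sit lower in every knockout library, and Per2 sits higher, by a margin of 190 against 189 normalized reads at the closest pair.

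Arntl (Entrez 11865, chromosome 7, 113178471 to 113314126, GRCm38) encodes BMAL1, without which the loop does not run. It was 665, 638 and 756 normalized reads in wild type replicates 1 to 3 and 269, 426 and 346 in knockout replicates 1 to 3. The groups were well apart, the lowest wild-type library being 1.496 times the highest knockout library. The mean fell from 686 ± 61.9 to 347 ± 78.5 (SD, n = 3 each), a log2 change of -1.003 (SE 0.18, 95% interval -1.41 to -0.60, limma adjusted p = 0.00619). Arntl kept its call with any 1 library left out, at changes of -1.16 to -0.83, the value with the library labelled wild type replicate 3 omitted being -0.93. Exons of Arntl share 33 bases with those of an antisense RNA, Gm45355, which is 0.439% of its exon length.

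Clock and Npas2 encode the alternative partners of BMAL1. Clock (chromosome 5, 76209868 to 76305603) was 906, 769 and 845 in wild type and 624, 733 and 820.1 in knockout. The groups overlapped, since knockout replicate 3 lay above wild type replicate 2. Its mean was 840.05 ± 69.1 and 725 ± 98.4 (log2 change -0.22, 95% interval -0.52 to 0.09, limma adjusted p = 0.235), so the data leave room for a fall of up to 0.52 on the log2 scale. Npas2 (chromosome 1, 39193702 to 39363240) was 314, 375 and 461 in wild type and 147, 288 and 233 in knockout. No library crossed, but wild type replicate 1 and knockout replicate 2 came close. The mean of Npas2 was 383 ± 73.7 in wild type and fell to 222 ± 71.0 (change of -0.82 on the log2 scale, SE 0.26, limma adjusted p = 0.0467), just inside the threshold. This call was lost under 9 of 18 alternatives, among them leaving out any 1 library except knockout replicate 2, and the adjusted p ranged from 0.0186 to 0.859 over all alternatives.

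Within each library, Arntl was compared with Clock, a ratio that does not depend on how the libraries were scaled. There were 0.734, 0.830 and 0.894 Arntl reads per Clock read in wild type and 0.432, 0.582 and 0.421 in knockout. The balance between the genes of the heterodimer thus differed without overlap between the groups. For Npas2 against Clock the ratios were 0.347, 0.487 and 0.545 in wild type and 0.235, 0.393 and 0.284 in knockout, and here knockout replicate 2 lay above wild type replicate 1. The ratios are not corrected for gene length and can be compared only between libraries.

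The Period genes encode the repressors that close the main loop, and they did not move together. Per1 (chromosome 11, 69095108 to 69109965), the receptor's own target, was 599.7, 616 and 467 in wild type and 332, 507 and 621 in knockout. The highest and the lowest of its 6 values were both in knockout libraries. Its log2 change was -0.24 (95% interval -0.78 to 0.30, limma adjusted p = 0.452), and it was 0.01 without knockout replicate 1. Per2 (chromosome 1, 91415977 to 91459351) was 149.7, 189 and 171 in wild type and 189.7, 304 and 274 in knockout. It was higher in all knockout libraries, though knockout replicate 1 exceeded wild type replicate 2 only barely. The means of Per2 were 169.9 ± 19.6 and 256 ± 59.3 (log2 change 0.57, SE 0.20, 95% interval 0.10 to 1.03, limma adjusted p = 0.0661), which did not pass the threshold. It passed with quantile normalization, library weights or DESeq2, and without knockout replicate 1 (0.77, limma adjusted p = 0.0118), and over all 18 alternatives the adjusted p of Per2 ranged from 0.0118 to 0.286.

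Per3 (chromosome 4, 150997018 to 151044707) was scarce, at 46.7, 51.8 and 46.4 in wild type and 15.7, 49.7 and 60.1 in knockout. Wild-type libraries were within 1.12 times of each other, whereas the highest knockout library was 3.82 times the lowest. The log2 change of -0.40 (95% interval -1.48 to 0.67, limma adjusted p = 0.53) turned to 0.18 without knockout replicate 1, so its direction rested on that library. Per1 reads per Per2 read were 4.01, 3.26 and 2.73 in wild type and 1.75, 1.67 and 2.27 in knockout. This ratio was lower in each knockout library.

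Cry1 (chromosome 10, 85131700 to 85185054) encodes a direct blocker of CLOCK and BMAL1. It was 358, 373 and 674 in wild type and 330.2, 372 and 324 in knockout. Only the library labelled wild type replicate 3 stood high. The log2 change was -0.39 (95% interval -0.94 to 0.16, limma adjusted p = 0.238), and it shrank to -0.10 without that library. Cry1 reads per Arntl read were 0.537, 0.584 and 0.892 in wild type and 1.23, 0.874 and 0.936 in knockout, overlapping through the same library.

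Nr1d1 (Entrez 217166, chromosome 11, 98767932 to 98775377) encodes REV-ERB alpha, a nuclear receptor that binds heme and represses Arntl. It was 2426, 1847 and 1176 in wild type and 674, 809 and 1007 in knockout. All wild-type values exceeded all knockout values, with the library labelled wild type replicate 3 the nearest to the knockouts. Its mean of 1816 ± 626 fell to 830.1 ± 168 (a log2 change of -1.09, SE 0.27, 95% interval -1.70 to -0.47, limma adjusted p = 0.0198). Omitting the library labelled wild type replicate 3 gave a change of -1.37. The call was lost without wild type replicate 1 (-0.85, adjusted p = 0.0643) and without wild type replicate 2 (-1.04, adjusted p = 0.0706), within a range of 0.000362 to 0.818 over the 18 alternatives of Nr1d1.

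Reads of Nr1d1 and of Thra, the thyroid hormone receptor gene on the opposite strand, can be confused in these non-stranded libraries. Their exons share 263 bases, 8.55% of the exon length of Nr1d1. Thra was 1015, 907 and 725 in wild type and 350.1, 450.1 and 451 in knockout (log2 change -1.08, limma adjusted p = 0.00381), so it fell as well. How reads in the shared stretch were counted is not given in the sources used here. Wild type replicate 1 was the highest and the library labelled wild type replicate 3 the lowest wild-type library for both genes. The summed level of 20 immediate early genes, such as Fos and Egr1, also lay lower in every knockout library: it was 241784, 220290.2 and 174040.2 in wild type and 105411, 109958 and 121738 in knockout. Of the 20, 15 were called lowered and 1 raised, against 15.4% and 15% of all genes tested. The part of the immediate early genes in the result for Nr1d1 was not tested.

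Dbp and Nfil3 encode the opposed regulators of D-box genes. Dbp (chromosome 7, 45705100 to 45710203) was scarce in both groups, at 29.7, 41.1 and 16.4 in wild type and 17.8, 42.4 and 19.1 in knockout. Both groups spanned the same range. The log2 change of -0.15 had a 95% interval of -1.19 to 0.89 (limma adjusted p = 0.815), which spans both directions. Exons of Dbp share 539 bases, 18.0% of their length, with Sphk2 on the other strand, which was far more abundant at 929 ± 150.3 and 718 ± 167. Only 10.7% of the genes tested had a lower mean level than Dbp.

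Nfil3 (Entrez 18030, chromosome 13, 52967209 to 52982878) showed the largest fall of the 10. It was 896, 1030 and 558 in wild type and 248, 286 and 329 in knockout. The lowest wild-type library was still 1.69 times the highest knockout library. The mean fell from 828 ± 243 to 288 ± 40.5, to 34.8% of wild type (log2 change -1.48, SE 0.23, 95% interval -2.02 to -0.95, limma adjusted p = 0.00412). Nfil3 kept its call with any 1 library left out, at changes of -1.74 to -1.30, the first of these with the library labelled wild type replicate 3 omitted. Only 4.70% of all genes tested had a more negative change. Nfil3 reads per Dbp read were 30.1, 25.1 and 34.1 in wild type and 13.9, 6.73 and 17.2 in knockout, without overlap, though with few reads of Dbp.

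**Figure D2:**
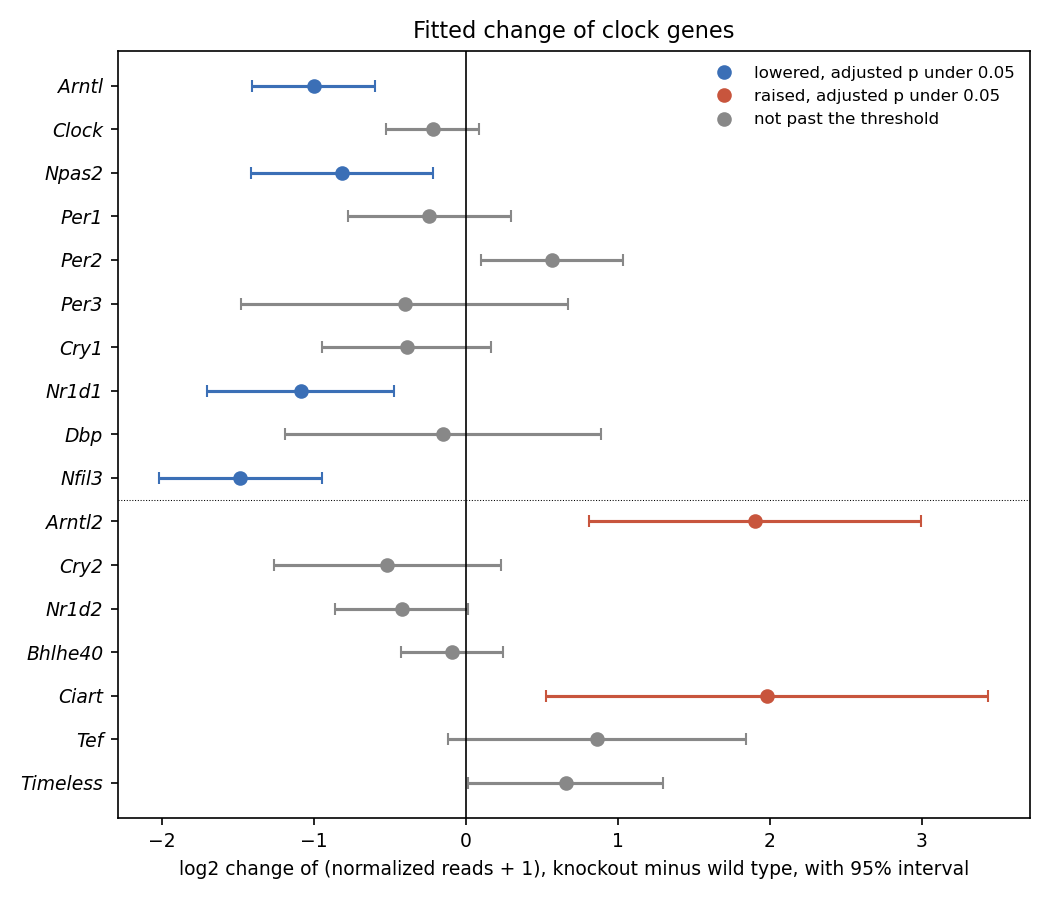
Fitted log2 change of (normalized reads + 1), knockout minus wild type, with its 95% interval (horizontal axis), for the 10 clock genes (above the dotted line) and 7 of the 8 other core loop genes that could be tested (below it). Blue marks the 4 lowered genes and red Arntl2 and Ciart, which were raised; the intervals of Dbp and Per3 are the widest of the 10.

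Read together, the library that stood out was knockout replicate 1. It held the lowest of the 6 values for 7 of the 10 clock genes (Arntl, Clock, Npas2, Per1, Per3, Nr1d1 and Nfil3), whereas it was the lowest for 28.8% of all genes tested. It also had the highest summed immune and stromal levels of the 6. Without it Arntl, Nr1d1 and Nfil3 were called lowered, at changes of -0.83, -0.95 and -1.38, and Per2 was called raised. The library labelled wild type replicate 3 had the highest Arntl, Npas2 and Cry1 of all 6, and within wild type the lowest Nr1d1, Nfil3, Per1, Per3 and Dbp. With that library omitted 3 of the 10 genes were lowered, Npas2 being lost. With either of the other wild-type libraries omitted the lowered genes numbered 2, Arntl and Nfil3. With the mean log2 level of the immune and stromal markers as a covariate none of the 4 was called, at changes of -0.58 for Arntl, -0.34 for Npas2, -0.36 for Nr1d1 and -0.97 for Nfil3. That level was higher in every knockout library, so marker level and genotype cannot be told apart in this fit.

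**Figure D3:**
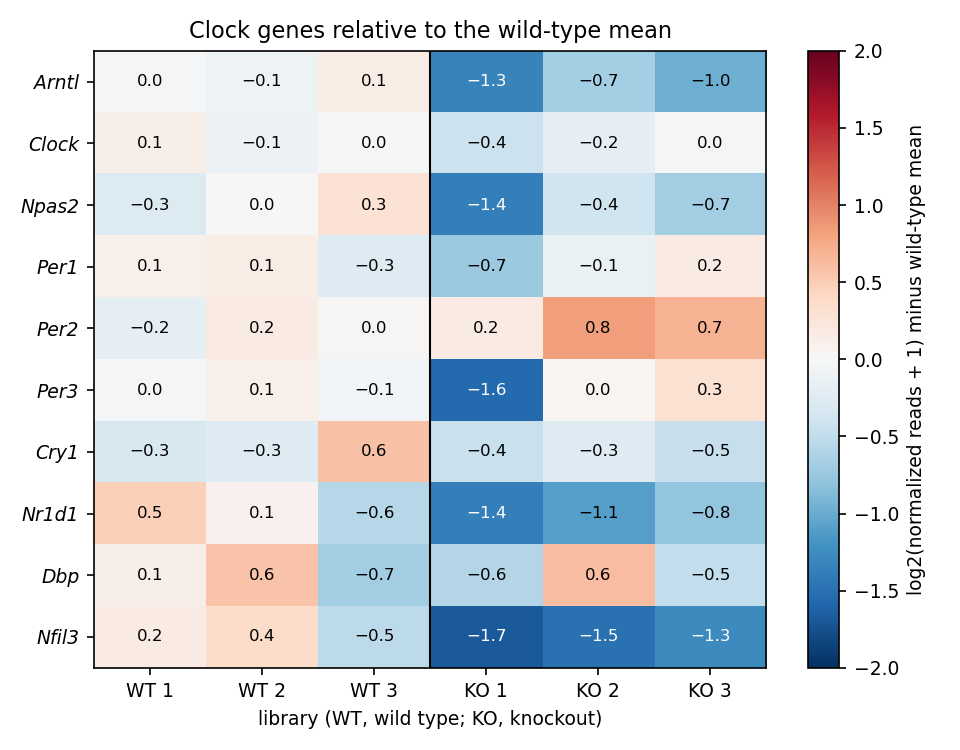
Level of each clock gene (rows) in each library (columns; WT, wild type; KO, knockout) as log2(normalized reads + 1) minus the wild-type mean, printed in each cell and coloured from blue (lower) to red (higher). Knockout replicate 1 is the bluest column, and the row of Per2 alone is above the wild-type mean in all 3 knockout libraries.

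The balance between members was followed further within libraries. Arntl reads per Per2 read were 4.45, 3.38 and 4.41 in wild type and 1.42, 1.40 and 1.26 in knockout. Within each group this ratio was far steadier than the gap between the groups, with means of 4.08 ± 0.61 and 1.36 ± 0.087. The pair of Arntl and its repressor did not behave so: Arntl reads per Nr1d1 read were 0.274, 0.345 and 0.643 in wild type and 0.400, 0.527 and 0.343 in knockout, wholly overlapping, with both genes lowered. Arntl reads per Dbp read were 22.4, 15.5 and 46.1 in wild type and 15.1, 10.05 and 18.1 in knockout, and Npas2 reads per Per3 read were 6.73, 7.23 and 9.92 and 9.33, 5.79 and 3.87, both with overlap. In all, 4 of the 9 ratios examined did not overlap between the groups, and the pairs were chosen with the genes' values known.

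Per length, the order of the members in wild type was led by Nr1d1 at 590.3 ± 203 normalized reads per kilobase of exon, followed by Nfil3 at 409 ± 119.9. These leading genes overlapped in range. Cry1 (140.1 ± 53.4), Per1 (99.6 ± 14.5), Arntl (91.2 ± 8.22), Npas2 (80.0 ± 15.4) and Clock (61.2 ± 5.03) came next, and each overlapped its neighbour in this order. Per2 (29.0 ± 3.34), Dbp (9.71 ± 4.13) and Per3 (5.03 ± 0.316) each lay below the one before without overlap. In knockout Nr1d1 (269.8 ± 54.5) and Nfil3 (142 ± 20.0) still led, and the levels per kilobase of Clock (52.8 ± 7.17), Npas2 (46.4 ± 14.8), Arntl (46.1 ± 10.4) and Per2 (43.7 ± 10.1) each overlapped the next. Arntl per kilobase was thus above Per2 in each wild-type library. In knockout Arntl was 35.8, 56.7 and 45.9 and Per2 was 32.4, 51.9 and 46.8, in overlapping ranges. The difference between these genes was not tested. Length was the union of all annotated exons, which lowers the level per kilobase of genes with many rarely used exons.

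Of 12 other genes of the core loop, 8 could be tested. Of these 2 were raised and 0 lowered, with a median log2 change of 0.28. Among all genes tested 15% were raised and 15.4% lowered, so counts over 8 genes do not set this list apart. Arntl2, a relative of Arntl that can also partner CLOCK, was 3.18, 4.89 and 6.37 in wild type and 32.5, 11.4 and 22.0 in knockout. It was higher in every knockout library (log2 change 1.90, SE 0.47, limma adjusted p = 0.0206), but its wild-type values rest on 3 to 7 reads, and the call was lost under 5 of 17 alternatives. Ciart, a repressor of CLOCK and BMAL1, was 2.12, 4.89 and 11.8 in wild type and 11.5, 31.0 and 35.3 in knockout. The library labelled wild type replicate 3 and knockout replicate 1 overlapped, and the change of 1.98 (SE 0.63, limma adjusted p = 0.0471) lost its call under 6 of 17 alternatives.

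Cry2, Nr1d2, Tef, Bhlhe40 and Timeless were not called. Cry2 was 206.5 ± 61.3 and 148 ± 52.8 (log2 change -0.52, limma adjusted p = 0.248), and Nr1d2, which encodes REV-ERB beta, was 433.5 ± 91.5 and 320.3 ± 46.5 (-0.42, adjusted p = 0.122). Tef, a relative of Dbp, was 160.5 ± 92.4 and 274 ± 89.1 (0.86, adjusted p = 0.154). Bhlhe40, a repressor that competes at E-boxes, was abundant and close in the groups at 4117 ± 138 and 3902 ± 714 (-0.09, adjusted p = 0.648). Timeless was 67.2 ± 20.1 and 104 ± 21.5 (0.66, adjusted p = 0.106). Rora, Rorb, Bhlhe41 and Hlf were too low to be tested. For none of these genes does a missed threshold show that the groups were alike.

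Among kinases and ubiquitin ligases that set the lifetime of clock proteins, 4 of 13 tested were lowered and 2 raised. The shares over all genes tested were 15.4% lowered and 15% raised. Btrc, a ligase subunit that marks PER proteins for destruction, went from 204 ± 25.4 to 136 ± 19.8 (log2 change -0.58, limma adjusted p = 0.0358). Prkaa1 and Prkaa2, the catalytic subunits of the energy sensor AMPK, which phosphorylates CRY1, went from 996 ± 148 to 570.3 ± 29.3 (-0.79, adjusted p = 0.00542) and from 1699 ± 220.0 to 1209 ± 159 (-0.49, adjusted p = 0.0329). The subunits of casein kinase 2 Csnk2b (229 ± 22.2 to 332 ± 40.9, adjusted p = 0.0273) and Csnk2a2 (325 ± 7.13 to 418 ± 35.7, adjusted p = 0.0457) were raised. The casein kinase 1 genes, whose products phosphorylate PER, were not called, with Csnk1d at 1517 ± 124 and 1811 ± 140.2 and Csnk1e at 161 ± 10.5 and 123 ± 14.7. Fbxl21 was too low to be tested. Csnk2a2 lost its call under 10 of 18 alternatives, Btrc and Prkaa2 under 5 each and Csnk2b under 4.

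Of 11 cofactors 3 were lowered and 0 raised, against 15.4% and 15% of all genes tested. Sirt1, a deacetylase that acts on BMAL1 and PER2, was 352, 378 and 319 in wild type and 147, 139.7 and 186 in knockout. It fell in every knockout library, to well below the lowest wild-type value (log2 change -1.15, SE 0.15, limma adjusted p = 0.00244). Ncor1, the corepressor that REV-ERB recruits, fell from 2063 ± 195 to 1462 ± 200.5 (-0.50, adjusted p = 0.0263), and the acetyltransferase gene Crebbp from 303 ± 23.2 to 219 ± 28.5 (-0.47, adjusted p = 0.0389). Hdac3, which acts with Ncor1, was 715 ± 31.3 and 797 ± 56.9 and was not called (adjusted p = 0.281). Ncor1 lost its call under 4 and Crebbp under 7 of 18 alternatives.

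Of 10 genes known as common outputs of the clock 1 was lowered and 2 were raised. These counts were near the background of 15.4% lowered and 15% raised among all genes tested. Tsc22d3, also a classic target of the glucocorticoid receptor, was 837, 1124 and 871 in wild type and 323, 553 and 477 in knockout. Its groups were clearly apart (log2 change -1.09, SE 0.21, limma adjusted p = 0.00905). Tspan4 rose from 18.1 ± 3.79 to 62.2 ± 32.4 (1.62, adjusted p = 0.0181), and Nampt, the enzyme that makes NAD for Sirt1, from 1077 ± 113 to 1534 ± 303 (0.50, adjusted p = 0.0499). Nampt kept its call under 6 of 18 alternatives, and Tspan4 lost its call under 3 of 17. Wee1, a target of CLOCK and BMAL1, was 143 ± 6.03 and 106 ± 7.08 and missed the threshold (adjusted p = 0.0553) although its groups did not overlap.

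Likeness of pattern was measured as the root-mean-square difference between log2 profiles over the 6 libraries, each centred on its own mean, against 10582 genes with a mean of at least 50. Among the members, Arntl was nearest to Npas2, at 0.18, Clock to Per1, at 0.22, and Nr1d1 to Nfil3, at 0.27. The genes nearest to Arntl were Mcee, Sun2 and Epb41l1 (0.09 to 0.10), and those nearest to Nfil3 were Srl, Muc2 and Zfp358 (0.07 to 0.09). Nr1d1 was most like Plekhg5 (0.07), followed by the immediate early genes Btg2 (0.13) and Egr1 (0.15). Per3 was most like Trp53inp1 (0.14) and then Usp2 (0.17), itself on the list of clock outputs, and Slc10a2 (0.18), and Per2 was most like Neurl3 (0.04). Clock was most like Tasor, Cpeb4 and Golga3 (0.03 to 0.05), Npas2 like Fbxo25, Nek3 and Pank1 (0.12 to 0.14), Per1 like Fam13a, Disp1 and Rab3a (0.06 to 0.09) and Cry1 like Rasef, H4c17 and Pmp22 (0.14 to 0.15). The genes nearest to Dbp, which were Zfp623, Cbr3 and Pla2g15, were farther off (0.26 to 0.28) than those of any other member. With 6 libraries in 2 groups many genes share such a pattern, and the list says nothing of shared control.

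**Figure D4:**
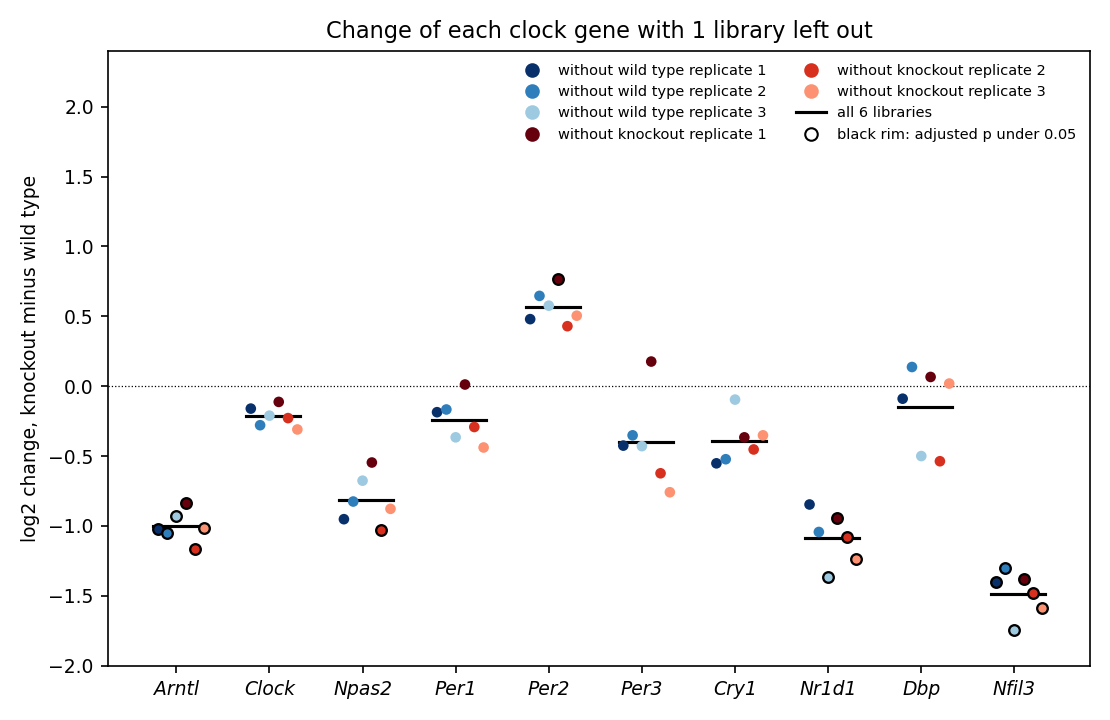
Log2 change of each clock gene, knockout minus wild type (vertical axis), with all 6 libraries (black line) and with each library left out in turn (points, coloured by the library left out; a black rim marks an adjusted p under 0.05). Arntl and Nfil3 keep a rim throughout, Npas2 has one only without knockout replicate 2, and the points of Per1, Per3 and Dbp cross 0.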

How the data were processed

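The deposited table holds a normalized signal, reads per gene that the authors scaled by 1 factor per library, named in the deposited table as DESeq2-normalized. The submitters' processing notes name FastQC, TopHat, DESeq2 and the mm10 build without versions. No source used here gives the read counter or the gene models. Libraries were non-stranded TruSeq mRNA, per the labels' protocols. Every value was a whole multiple of its library's step (100% within 0.001), which gave back whole reads. Entrez numbers were paired with symbols of RefSeq GRCm38.p6 (23666 of 23725 matched). GENCODE M21 exons, also on GRCm38, gave lengths and overlaps.

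Genes reaching 10 in 3 or more libraries were tested with limma 3.58.1 (R 4.3.3) on log2(value + 1) with an intensity-dependent prior. Adjusted p-values are from that fit to all 6 libraries unless another tool or alternative is named. Those given with a library left out are from that smaller fit, and ranges over alternatives include those of the other tools. Log2 changes on this scale understate those of scarce genes. Named were the 10 members, called genes of 4 further clock lists, untested members by name, genes sharing exons and the 3 most alike genes per member; further genes of those lists were named with their values known, and a few that the rule names are not reported here. Members and lists were chosen with earlier results of these data known. The fit was also run on simulated data with far fewer changed genes than were called here, so that run does not vouch for these calls. The 18 alternatives were other pseudocounts (0.5, 5), filters (none, 50), scalings (TMM, upper quartile, quantile), robust moderation, library weights, a marker covariate, edgeR 4.0.16 and DESeq2 1.42.0 on recovered reads, and each library left out.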

Additional observations from a re-analysis of the deposited data

How the results depend on the processing

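Adding the mean log2 level of 37 markers of immune and stromal cells to the fit left 78 changed genes in place of 3910, and 0 clock genes lowered, and Nr3c1 itself was not called (-0.93, adjusted p = 0.815). That level was 3.54 to 4.37 in wild type and 4.71 to 6.01 in knockout, so it cannot be told apart from genotype in this fit. The changes became 0.0065 for Clock, 0.42 for Per1, 0.85 for Per3, 1.23 for Dbp and -0.087 for Nampt, and none was called. With 1 library left out the genes changed numbered 1923 to 3607, the clock genes lowered 2 to 4 and those raised 0 to 1, and the log2 change of Nr3c1 was -2.82 to -1.57, called only with the library labelled wild type replicate 3 omitted. Over the same omissions Per1 ran from -0.44 to 0.012, Per3 from -0.76 to 0.18 and Dbp from -0.54 to 0.14. Omitting knockout replicate 1 turned the direction of Per1, Per3 and Dbp (0.07), and Dbp also turned on omitting wild type replicate 2 or, at 0.02, knockout replicate 3. Per2 made 1 clock gene raised with quantile normalization, library weights or DESeq2. The cause of these differences was not tested. edgeR and DESeq2 on recovered reads called 3893 and 4164 genes, each with 4 clock genes lowered. Of 427 results for 24 genes under 18 alternatives, 332 kept direction and side of the threshold. Genes not called in the main fit count among these when they stay uncalled, as Cry1 did under all 18. The pooled number therefore does not measure how stable the calls are. Of called genes, Npas2 lost its call under 9 and Csnk2a2 under 10 of 18, and Nampt kept its call under 6. No paired analysis was possible because the labels pair no libraries across the groups, and the replicate numbers used here only name libraries in accession order. Low read numbers limit Dbp, Per3, Arntl2 and Ciart.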
